A study of Mus musculus with 4 samples.

Results

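The genes described here are Gdf15, which encodes growth differentiation factor 15, a secreted cytokine distantly related to the TGF-beta family, and 8 genes of the integrated stress response: Atf4, Ddit3, Trib3, Atf5, Chac1, Asns, Sesn2 and Ddit4. They are 9 of the 32285 genes in the count tables, taken by symbol, and they occupy 10 rows because Ddit3 is listed under 2 identifiers. Gdf15 was chosen by its measured level, which differed with tumor in LAIR1KO lung macrophages. The other members were selected with it as genes of the pathway, with earlier results of these data known. Therefore every member's value in that contrast in interstitial macrophages is given as a description, without a test. The Gdf15 values of LAIR1KO interstitial macrophages in the other contrasts, and of LAIR1KO alveolar macrophages, are treated in the same way.

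In the integrated stress response, kinases that sense amino acid shortage, unfolded protein in the endoplasmic reticulum, heme shortage or double-stranded RNA phosphorylate the translation factor eIF2alpha. General translation then slows while the transcription factor ATF4, encoded by Atf4, is translated more efficiently and activates target genes, so a change in ATF4 activity need not show in the level of Atf4 mRNA. Among its known targets are the genes of the transcription factors CHOP (Ddit3) and ATF5, the pseudokinase TRIB3, the glutathione-degrading enzyme CHAC1, asparagine synthetase (Asns) and the inhibitors of mTORC1 signaling SESN2 and DDIT4. GDF15 is released by stressed cells, is produced by macrophages among others, and acts on hindbrain neurons through the receptor GFRAL with its partner RET.

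The lungs came from LAIR1KO mice bearing B16/F10 melanoma, LAIR1KO mice with normal lung, WT mice bearing the same melanoma and WT mice with normal lung. LAIR1 is an inhibitory receptor for collagen. Each group was 1 library of single cells, prepared with a 10x Genomics 3' kit, in which 3 replicates were marked with hashtag antibodies, so library and group cannot be told apart. B16/F10 is a transplantable mouse melanoma line. The labels used here give neither the age, the sex nor the strain of the mice, nor how long or by which route the tumors grew.

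In all, 8468 cells in 12 hashtag replicates were kept, with 510 to 1050 cells and 2378671 to 6202834 UMIs (unique molecular identifiers, each a counted mRNA molecule) per replicate. Levels are given as CPM, the UMIs of a gene per 1000000 UMIs of the same cell class and replicate. Cells were clustered and each class was named from markers, which the ending "-like" marks. Of the 1508 interstitial macrophage-like cells, 99.3% held C1qa, 95.4% Mrc1 and 95.3% Pf4, but only 50.6% Trem2 and 48.8% Lyve1. Of the 209 alveolar macrophage-like cells, 100% held Chil3 and 98.1% Mrc1, but only 65.6% Siglecf and 54.5% Marco. Of the 2151 neutrophil-like cells, 99.5% held S100a8, while Ly6g was found in 4.09% and the granule gene Camp in 0.093%. Lair1 had 1 UMI in 551 LAIR1KO tumor-bearing interstitial macrophage-like cells and 0 in 216 LAIR1KO normal ones, against 572 UMIs in 489 WT tumor-bearing cells and 219 in 252 WT normal cells. By Xist and Y-linked transcripts the WT normal mice were male and the other 3 groups female, so sex cannot be told apart from group in any comparison with WT normal lung. Between 3 and 6 barcodes were shared by any pair of libraries.

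The promoters of the 4 members below are shown because they carry the motif through which ATF4 activates its targets, or, for Gdf15, because they do not carry it. Each runs from 250 bases before to 50 bases after an annotated start, 5′ to 3′ on the gene's strand, from RefSeq (GRCm38.p6). Capitals mark a match, on either strand, to the C/EBP-ATF response element searched as TGATGNAAN or to the related TGACGCAAT.
Chac1, chr2:119350992-119351291, plus strand: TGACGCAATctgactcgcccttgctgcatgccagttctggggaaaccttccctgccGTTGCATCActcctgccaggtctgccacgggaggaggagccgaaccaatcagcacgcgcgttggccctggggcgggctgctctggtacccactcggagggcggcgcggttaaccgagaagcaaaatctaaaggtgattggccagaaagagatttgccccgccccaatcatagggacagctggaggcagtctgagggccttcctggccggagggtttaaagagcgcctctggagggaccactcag
Trib3, chr2:152344011-152344310, minus strand: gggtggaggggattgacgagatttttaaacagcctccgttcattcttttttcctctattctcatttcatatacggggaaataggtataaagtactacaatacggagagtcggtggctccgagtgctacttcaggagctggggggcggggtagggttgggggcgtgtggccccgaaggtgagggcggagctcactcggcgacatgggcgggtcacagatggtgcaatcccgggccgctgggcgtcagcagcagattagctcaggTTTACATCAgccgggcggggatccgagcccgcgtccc
Asns, chr6:7693160-7693459, minus strand: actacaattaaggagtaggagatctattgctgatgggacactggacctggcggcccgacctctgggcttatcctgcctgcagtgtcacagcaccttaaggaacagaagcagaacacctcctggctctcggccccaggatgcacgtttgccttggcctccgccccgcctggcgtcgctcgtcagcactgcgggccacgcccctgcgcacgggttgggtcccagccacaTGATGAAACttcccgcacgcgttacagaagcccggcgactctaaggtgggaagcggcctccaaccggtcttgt
Gdf15, chr8:70632407-70632706, minus strand: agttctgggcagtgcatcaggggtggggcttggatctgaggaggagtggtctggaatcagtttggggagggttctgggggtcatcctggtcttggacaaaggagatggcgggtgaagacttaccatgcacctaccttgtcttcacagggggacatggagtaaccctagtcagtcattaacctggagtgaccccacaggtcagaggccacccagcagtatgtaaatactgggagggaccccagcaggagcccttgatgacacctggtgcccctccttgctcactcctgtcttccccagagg
Gdf15, chr8:70632046-70632345, minus strand: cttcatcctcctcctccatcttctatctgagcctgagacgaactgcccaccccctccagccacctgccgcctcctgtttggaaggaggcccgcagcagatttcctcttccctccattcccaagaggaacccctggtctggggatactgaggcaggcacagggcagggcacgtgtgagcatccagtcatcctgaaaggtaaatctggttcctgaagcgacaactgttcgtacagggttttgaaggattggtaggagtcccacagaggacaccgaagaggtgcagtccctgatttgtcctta

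The TGATGNAAN match in Chac1 reads GTTGCATCA on the strand printed and begins 194 bases before the start, and a TGACGCAAT match lies at the window's first base, 250 bases before it. The match in Trib3 reads TTTACATCA and lies 13 bases after the start. In Asns, TGATGAAAC begins 23 bases before the start. None of these matches overlapped another. Of the 9 members, with 11 promoters between them, 3 held the TGATGNAAN motif and the other 6 held none of the motifs searched, which included TGACGTCA (the cAMP response element) and the endoplasmic reticulum stress element (CCAAT and, after any 9 bases, CCACG). Of all 32851 mouse promoters in the same table, 3.95% held TGATGNAAN, 0.0974% TGACGCAAT, 1.79% TGACGTCA and 0.119% the endoplasmic reticulum stress element. A match is a run of letters in this window, and neither a match nor its absence speaks of binding.

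In the GENCODE M21 annotation of GRCm38, Gdf15 lies on chr8:70629393-70632456, Atf4 on chr15:80255184-80257541, Ddit3 on chr10:127290774-127296288 and Sesn2 on chr4:132492032-132510501. Atf5 lies on chr7:44812256-44816658, Ddit4 on chr10:59949669-59951834, Asns on chr6:7675169-7693254, and Chac1 and Trib3 on chr2:119351229-119354381 and chr2:152337422-152344032. All are protein coding. The additional Ddit3 row shares its 105 exon bases with the main one, 6.13% of the main row's exon length, and held 0 UMIs. The members had very different numbers of UMIs behind them in the kept cells, with 19858 for Atf4, 7804 for Gdf15, 4193 for Atf5, 3946 for Ddit3 and 1882 for Sesn2. Far fewer stood behind Ddit4 with 876 UMIs, Asns with 348, Chac1 with 186 and Trib3 with 127.

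Gdf15 was a transcript of lung macrophages. Interstitial macrophage-like cells, 17.8% of the kept cells, held 62.8% of its UMIs, and alveolar macrophage-like cells, 2.47% of the cells, held 24.6%. Its level was highest in alveolar macrophage-like cells, at 1032 ± 325 CPM (SD, n = 6, from tumor-bearing lungs alone), and next in interstitial macrophage-like cells, at 497 ± 176 CPM (SD, n = 12). Endothelial cell-like cells followed at 54.2 ± 33.8 CPM (SD, n = 12). The gaps above and below the interstitial macrophage-like level each exceeded the SDs of both neighbours. The replicates of the macrophage classes overlapped, with the lowest alveolar one at 433 CPM and the highest interstitial one at 758 CPM. The lowest interstitial macrophage-like replicate, at 156 CPM, lay above the highest endothelial one, at 117 CPM.

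Below the endothelial cell-like cells, no class differed from its neighbour in the order beyond their spread. Pericyte and smooth muscle cell-like cells had 51.2 ± 42.8 CPM (n = 3), epithelial cell-like cells 27.7 ± 15.8 CPM (n = 12) and monocyte-like cells 17.4 ± 28.8 CPM (SD, n = 10). Fibroblast-, neutrophil-, B cell-, dendritic cell- and T cell-like cells had mean Gdf15 levels of 5.79 to 8.33 CPM. In natural killer cell-like cells the level was 0 in all 4 replicates with enough cells. Gfral, the gene of the receptor, had 0 UMIs in the 8468 cells, and Ret had 44 UMIs in 36 cells.

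**Figure D1:**
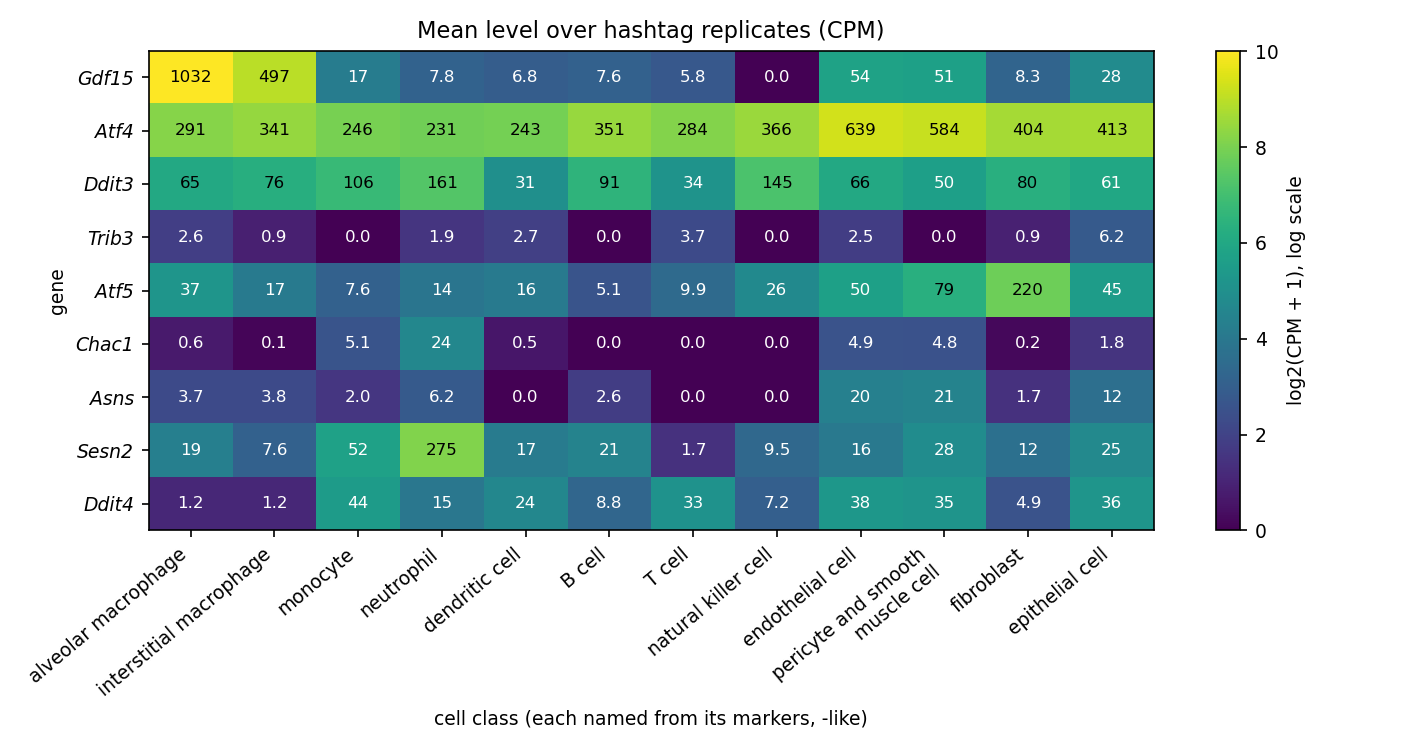
Mean level of each member (rows) in each marker-named cell class (columns), in CPM over hashtag replicates with at least 10 cells. Numbers are CPM and color is log2(CPM + 1), so Gdf15 stands out in the 2 macrophage classes, Sesn2 in neutrophil-like cells and Atf5 in fibroblast-like cells.

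Within the interstitial macrophage-like cells, Gdf15 was highest in the LAIR1KO tumor-bearing lungs. Its level was 758, 757 and 646 CPM in the LAIR1KO tumor-bearing replicates and 156, 345 and 413 CPM in the LAIR1KO normal ones. It was 402, 464 and 451 CPM in the WT tumor-bearing replicates and 404, 554 and 617 CPM in the WT normal ones. The 3 LAIR1KO tumor-bearing replicates lay above all 9 others, and the LAIR1KO normal group overlapped both WT groups only through its highest replicate. The lowest LAIR1KO normal value came from 19 cells and 24 Gdf15 UMIs, while the other 11 values rested on 55 to 284 cells.

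As a description of the contrast that chose the gene, the fitted log2 difference of tumor-bearing over normal LAIR1KO lung was 1.12 ± 0.21 (SE), with group means of 720 ± 64.3 and 305 ± 133 CPM (SD, n = 3 each). In that contrast edgeR called 0% of the 7440 genes tested in these cells at an adjusted p under 0.05. Likewise as descriptions, the LAIR1KO over WT difference in log2 was 0.72 ± 0.19 in tumor-bearing lung and -0.65 ± 0.21 in normal lung (SE). Both differences share the LAIR1KO libraries that chose the gene. The tumor difference in LAIR1KO minus that in WT was 1.37 ± 0.28 in log2 (SE), a contrast in which 1.16% of genes were called. Without LAIR1KO normal replicate 1, the difference of tumor-bearing over normal LAIR1KO lung was 0.90, and that of LAIR1KO over WT in normal lung was -0.44.

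The WT libraries, which the choice did not use, gave no called difference. Gdf15 averaged 439 ± 33.1 CPM in WT tumor-bearing interstitial macrophage-like cells and 525 ± 109 CPM in WT normal ones (SD, n = 3 each), and the groups overlapped. The fitted log2 difference was -0.25 ± 0.20 (SE), with a 95% interval of -0.66 to 0.16 and an adjusted p of 0.704 with edgeR's quasi-likelihood test. Over 22 alternative settings the difference ranged from -0.43 to -0.01 and was not called in any of them, with an adjusted p of 0.48 or more.

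The interstitial macrophage-like class was built mainly of 2 clusters, one led by Ccl4 and Ccl3 (cluster 1) and one led by Retnla, F13a1 and Folr2 (cluster 4), and Gdf15 was an input to the clustering. In cluster 1, Gdf15 was at 853, 1111 and 845 CPM in LAIR1KO tumor-bearing replicates, 207, 385 and 484 CPM in LAIR1KO normal, 447, 489 and 383 CPM in WT tumor-bearing and 468, 557 and 838 CPM in WT normal replicates. In cluster 4 it was at 690, 461 and 513 CPM in LAIR1KO tumor-bearing replicates, 0, 238 and 271 CPM in LAIR1KO normal, 361, 446 and 659 CPM in WT tumor-bearing and 375, 599 and 429 CPM in WT normal replicates. In both clusters the LAIR1KO tumor-bearing replicates stood above all LAIR1KO normal ones. In cluster 4 they overlapped both WT groups, and the value of 0 there rests on 6 cells. Cluster 1 made up 49.2% of the class in LAIR1KO tumor-bearing lung, 69.4% in LAIR1KO normal, 60.7% in WT tumor-bearing and 38.1% in WT normal lung.

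**Figure D2:**
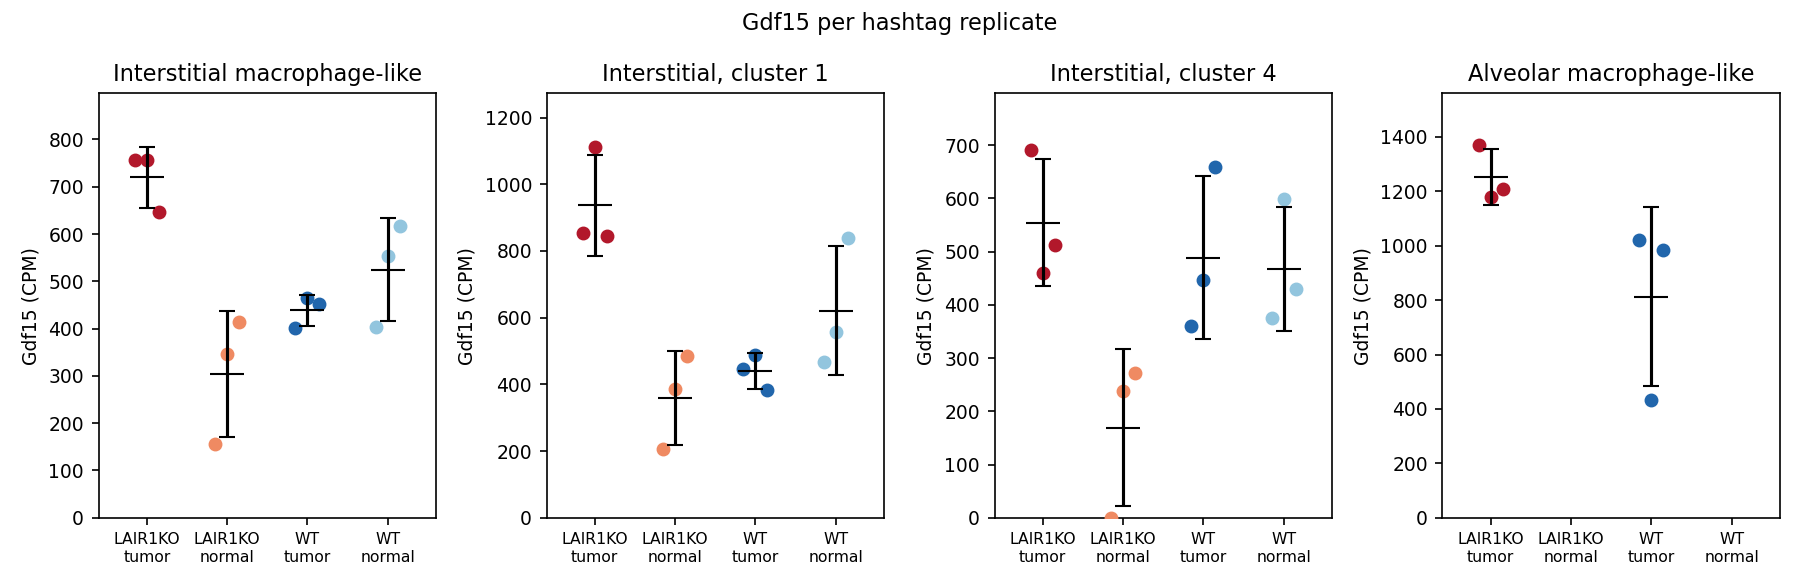
Gdf15 in CPM (y axis) per hashtag replicate (points) with mean and SD (bars), by group, in interstitial macrophage-like cells, in their clusters 1 and 4 and, for the tumor-bearing groups, in alveolar macrophage-like cells. The LAIR1KO tumor-bearing points lie at 646 to 758 CPM in the interstitial class, above the 9 other replicates.

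Gdf15 was spread very unevenly over the interstitial macrophage-like cells. No Gdf15 UMI was found in 63.2% of LAIR1KO tumor-bearing cells, 70.8% of LAIR1KO normal, 64.8% of WT tumor-bearing and 71.03% of WT normal cells. The tenth of cells with the most Gdf15 held 75.7% of its UMIs in LAIR1KO tumor-bearing lung, 74.7% in LAIR1KO normal, 71.7% in WT tumor-bearing and 82.1% in WT normal lung. A small number of cells with many molecules therefore made most of each group's level.

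Cells with at least 30 Gdf15 UMIs numbered 24 of 551 in LAIR1KO tumor-bearing lung and carried 48.9% of that group's Gdf15 UMIs. There was 1 such cell of 216 in LAIR1KO normal lung, with 12.4% of the UMIs, 6 of 489 in WT tumor-bearing lung with 17.2%, and 8 of 252 in WT normal lung with 48.0%. LAIR1KO tumor-bearing and WT normal lung thus had the larger shares of Gdf15 in very high cells. With each cell thinned to 2000 UMIs, Gdf15 was detected in 27.7% of LAIR1KO tumor-bearing cells (exact 95% interval 24.0 to 31.7), 23.0% of LAIR1KO normal (17.4 to 29.3), 22.9% of WT tumor-bearing (19.3 to 26.9) and 18.2% of WT normal cells (13.6 to 23.6), intervals that cover counting error only. The thinned share in fibroblast-like cells, a class with little Gdf15, was 2.1%, 0%, 1.59% and 0.88% in the same order of groups. Free RNA itself was not estimated. Unthinned, the interstitial macrophage-like shares were 36.8%, 29.2%, 35.2% and 28.97%, at median depths of 5130, 4948, 5352 and 6716.5 UMIs per cell.

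**Figure D3:**
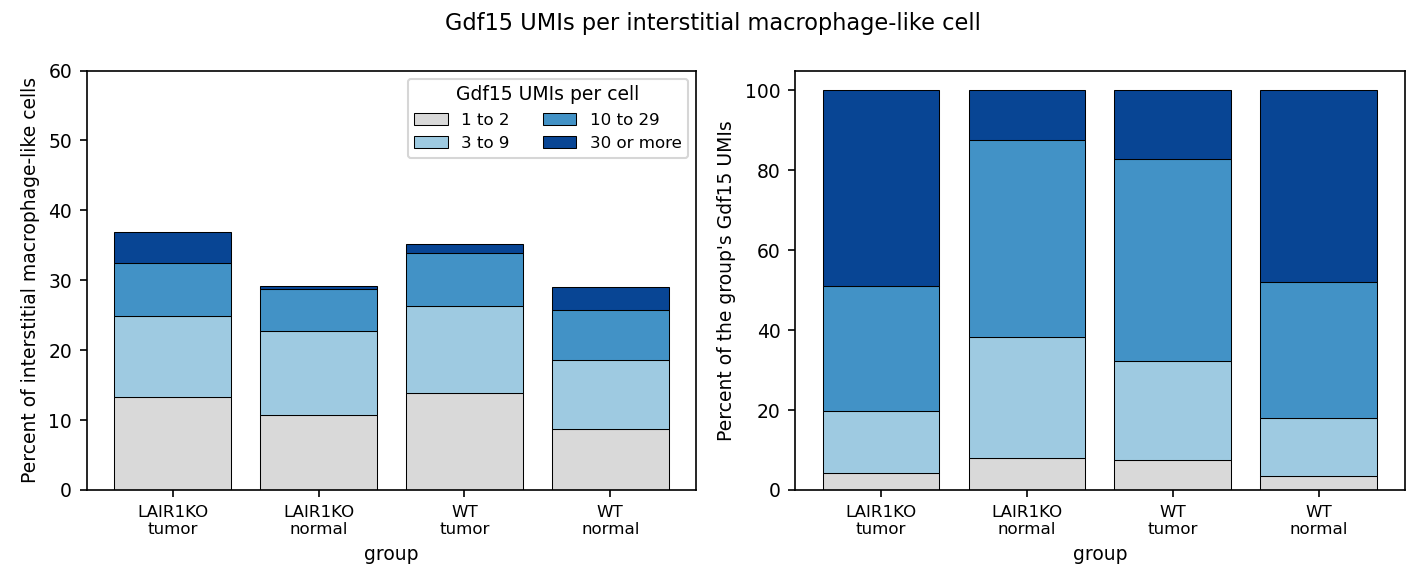
Share of interstitial macrophage-like cells with 1 to 2, 3 to 9, 10 to 29 and 30 or more Gdf15 UMIs (left, percent of cells, by group) and the share of the group's Gdf15 UMIs that those cells held (right, percent). Cells with 30 or more UMIs were 4.36% of LAIR1KO tumor-bearing cells and held 48.9% of the UMIs.

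Some other measures moved with the groups in these cells. Summed neutrophil markers stood at 9.52 per 10000 UMIs in LAIR1KO tumor-bearing, 15.9 in LAIR1KO normal, 5.72 in WT tumor-bearing and 6.30 in WT normal interstitial macrophage-like cells, with 3 or 4 of the 12 markers at 0. Alveolar macrophage markers were at 16.01 to 19.2 per 10000 UMIs in the 4 groups, and genes induced by tissue dissociation at 256, 274, 285 and 282. Epithelial markers were at 59.8 per 10000 UMIs in WT tumor-bearing cells, with a replicate range of 5.87 to 136, and at 4.29 to 7.06 in the other groups. The part of these in the Gdf15 values was not tested. Of all interstitial macrophage-like barcodes, hashtags assigned 63.6% to a replicate in LAIR1KO tumor-bearing lung, 40.8% in LAIR1KO normal, 59.1% in WT tumor-bearing and 62.1% in WT normal lung. Among the cells with no hashtag, Gdf15 was at 957, 323, 603 and 475 CPM in these groups, with the same highest and lowest group as in the assigned cells, although the middle groups changed places. Among the 37 to 120 barcodes per group called hashtag doublets, it was at 629, 689, 693 and 452 CPM, where LAIR1KO tumor-bearing lung was not the highest and WT normal lung was the lowest.

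Alveolar macrophages are a different population of the airspaces. Gdf15 was chosen in macrophages, and the comparison open to alveolar ones shares the LAIR1KO tumor-bearing library with that choice, so its values here are a description. The LAIR1KO tumor-bearing replicates had 1371, 1180 and 1207 CPM, against 1021, 433 and 983 CPM in the WT tumor-bearing ones. These groups did not overlap, with means of 1252 ± 103 and 812 ± 329 CPM (SD, n = 3 each). The fitted log2 difference was 0.66 ± 0.21 (SE), and leaving out single replicates moved it between 0.35, without WT tumor-bearing replicate 2, and 0.86. The other members tested, Atf4 and Ddit3, were not called with edgeR or DESeq2, beside a background of 0.0248% of 4028 genes, and neither had an unadjusted p under 0.05. Atf4 differed by 0.09 ± 0.15 and Ddit3 by 0.36 ± 0.33 in log2 (SE). Normal lungs held at most 4 alveolar macrophage-like cells per replicate and gave no comparison.

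Among the transcription factor genes of the response in interstitial macrophage-like cells, Atf4 differed little between groups, while Ddit3 and Atf5 were lowest on average in LAIR1KO normal lung, as Gdf15 was. Of the 9 members, 4 had enough counts there to be tested, namely Gdf15, Atf4, Ddit3 and Atf5. Atf4 had 310, 337 and 330 CPM in LAIR1KO tumor-bearing, 324, 338 and 378 CPM in LAIR1KO normal, 366, 316 and 340 CPM in WT tumor-bearing and 311, 319 and 422 CPM in WT normal replicates. The 4 groups overlapped throughout. Its log2 differences were -0.04 ± 0.13 for tumor in WT, -0.06 ± 0.13 for genotype in tumor-bearing lung and 0.02 ± 0.14 for genotype in normal lung (SE), and the 95% intervals together ran from -0.33 to 0.32.

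Ddit3, whose product CHOP can drive cell death under lasting stress, was at 91.8, 72.2 and 75.5 CPM in LAIR1KO tumor-bearing, 51.9, 56.6 and 69.5 CPM in LAIR1KO normal, 76.6, 133 and 76.2 CPM in WT tumor-bearing and 66.4, 93.2 and 54.4 CPM in WT normal replicates. LAIR1KO tumor-bearing replicates were all above LAIR1KO normal ones, as in the contrast that chose the members, while the WT groups overlapped. For tumor in WT the log2 difference was 0.44 ± 0.22 (SE), with an interval of -0.02 to 0.90 and an adjusted p of 0.458 (edgeR). Atf5, whose product also takes part in the mitochondrial stress response, was low here, at 11.2, 12.04 and 29.1 CPM in LAIR1KO tumor-bearing, 12.98, 9.13 and 9.65 CPM in LAIR1KO normal, 12.4, 21.0 and 14.1 CPM in WT tumor-bearing and 15.8, 27.0 and 24.4 CPM in WT normal replicates. The LAIR1KO normal replicates were all below the WT normal ones, with a log2 difference of -1.06 ± 0.51 (SE) and an adjusted p of 0.421 (edgeR). As descriptions, the log2 differences for tumor in LAIR1KO were 0.96 ± 0.49 for Atf5, 0.37 ± 0.25 for Ddit3 and -0.12 ± 0.14 for Atf4 (SE). Set against the tumor difference in WT, they were larger by 1.38 ± 0.62 for Atf5, and differed by -0.06 ± 0.34 for Ddit3 and -0.08 ± 0.19 for Atf4 (SE).

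In counts, edgeR called 0 of 4 members for tumor in WT, where it called 0.874% of all genes tested. It called 0 of 3 members other than Gdf15 for genotype in tumor-bearing lung, against 0.0941% of genes, and 0 of 3 for genotype in normal lung, against 1.24%. In each of these comparisons none of the members counted had an unadjusted p under 0.05, and DESeq2 also called 0. However, DESeq2 gave no adjusted p for 4 of the 16 member tests of this class over the 4 contrasts. The remaining 5 members were near or below the detection of this depth in the class, with means of 7.6 CPM for Sesn2, 3.75 for Asns, 1.19 for Ddit4, 0.851 for Trib3 and 0.0938 for Chac1.

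**Figure D4:**
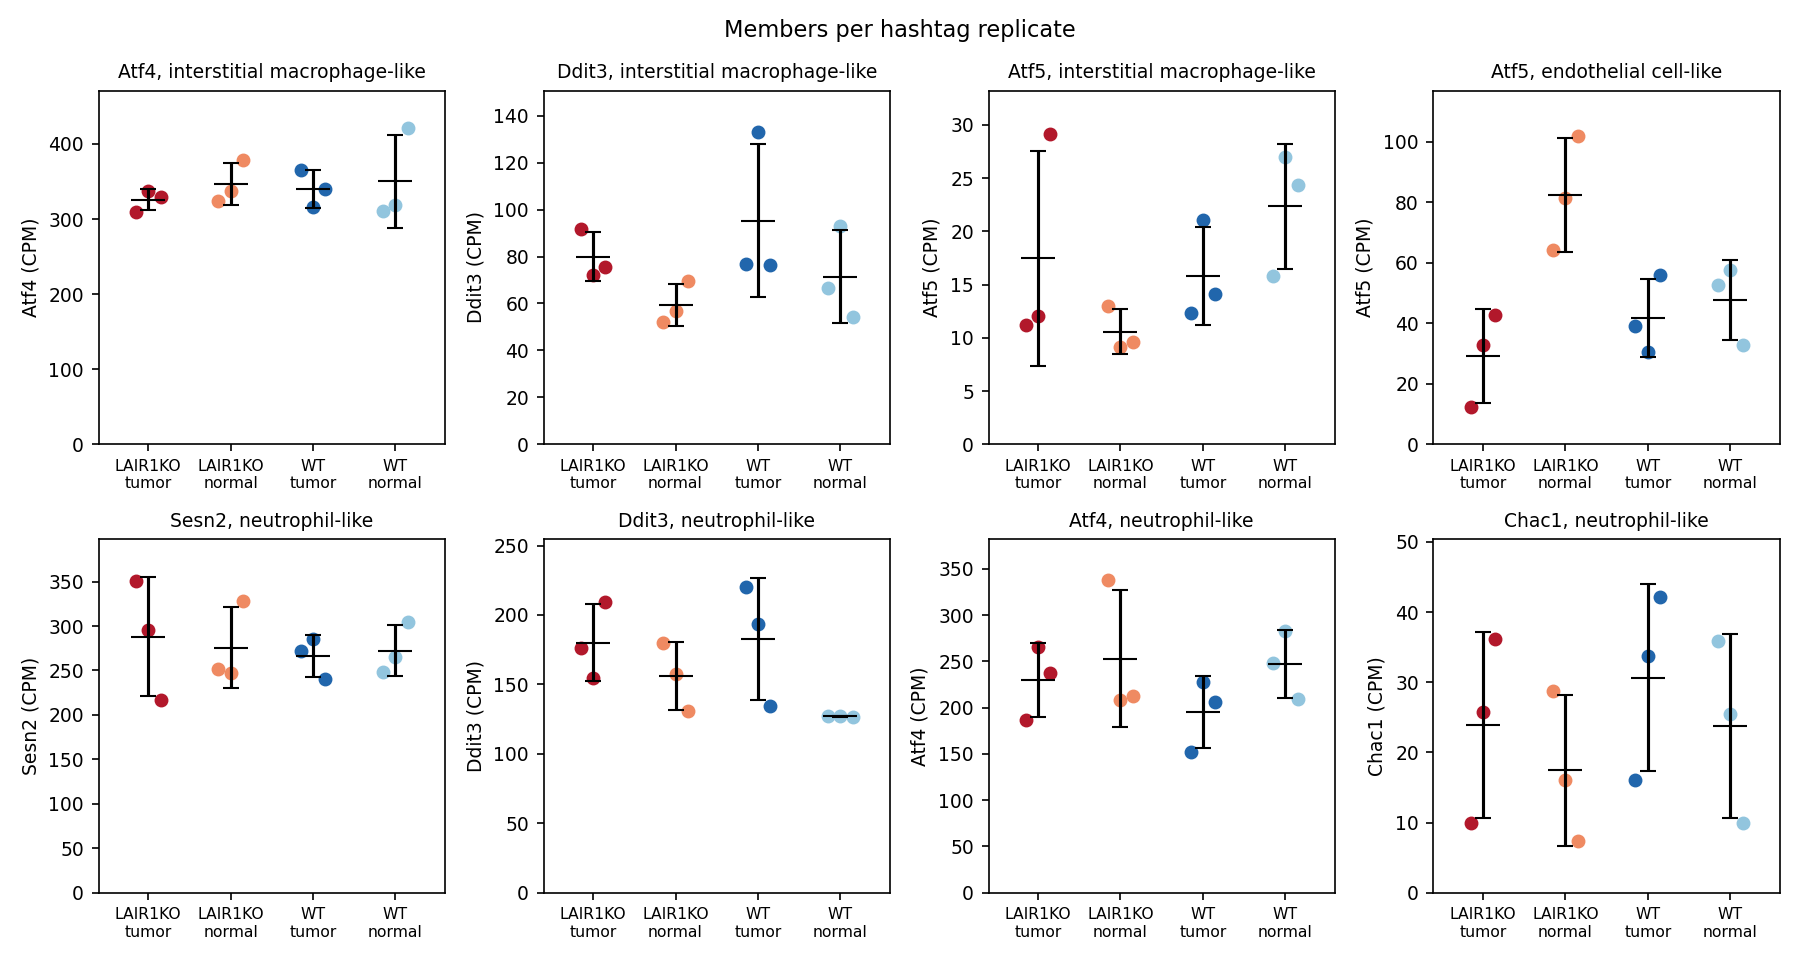
Levels in CPM (y axes, from 0) per hashtag replicate (points) with mean and SD (bars), by group, for Atf4, Ddit3 and Atf5 in interstitial macrophage-like cells, Atf5 in endothelial cell-like cells, and Sesn2, Ddit3, Atf4 and Chac1 in neutrophil-like cells. The groups overlap in most panels, and endothelial Atf5 is at 12.3 to 42.7 CPM in LAIR1KO tumor-bearing replicates, below the 64.2 to 102 CPM of LAIR1KO normal ones.

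Sesn2, the leucine-sensing member that restrains mTORC1, was a transcript of neutrophils in these lungs. Neutrophil-like cells were 25.4% of the cells and held 61.5% of its UMIs, at 275 ± 38.9 CPM (SD, n = 12), and the lowest of their replicates, 217 CPM, lay above the highest monocyte-like one, 146 CPM. Monocyte-like cells had 52.3 ± 43.5 CPM (SD, n = 10) and interstitial macrophage-like cells 7.6 ± 3.98 CPM (SD, n = 12). Thinned to 2000 UMIs, 44.4%, 37.6%, 31.9% and 40.5% of neutrophil-like cells in LAIR1KO tumor-bearing, LAIR1KO normal, WT tumor-bearing and WT normal lung held a Sesn2 UMI, against 1.84%, 2.56%, 3.45% and 0.587% of fibroblast-like cells. Only the deeper 69 to 252 neutrophil-like cells per group enter these shares, since the class had a median depth of 1446 to 1960 UMIs. Unthinned, the neutrophil-like shares were 37.1%, 36.1%, 31.7% and 42.3%.

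Chac1 and Ddit3 were also highest in neutrophil-like cells, with different margins. Chac1 was at 23.9 ± 11.8 CPM in neutrophil-like cells and at 5.06 ± 12.3 CPM in monocyte-like cells, the next class, and neutrophil-like cells held 46.8% of its 186 UMIs. Ddit3 was at 161 ± 33.8 CPM in neutrophil-like, 145 ± 62.7 CPM in natural killer cell-like and 106 ± 43.6 CPM in monocyte-like cells (SD). No pair of neighbours in the Ddit3 order differed beyond their spread, from neutrophil-like cells down to 30.7 ± 18.9 CPM in dendritic cell-like cells. Gdf15, by contrast, was at 7.79 ± 6.09 CPM in neutrophil-like cells, so the class with the most Sesn2, Chac1 and Ddit3 was among the low ones for Gdf15.

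Across groups, none of the members tested in neutrophil-like cells was called. Sesn2 was at 351, 296 and 217 CPM in LAIR1KO tumor-bearing, 252, 247 and 328 CPM in LAIR1KO normal, 272, 286 and 239.96 CPM in WT tumor-bearing and 248, 265 and 304 CPM in WT normal replicates, and all groups overlapped. Ddit3 was at 176, 154 and 209 CPM in LAIR1KO tumor-bearing, 179.84, 158 and 131 CPM in LAIR1KO normal, 220.15, 194 and 135 CPM in WT tumor-bearing and 127, 127 and 126 CPM in WT normal replicates. The WT normal replicates were lowest and almost equal, and all WT tumor-bearing ones lay above them. The log2 difference for tumor in WT was 0.56 ± 0.20 (SE), with an adjusted p of 0.233 (edgeR) at an unadjusted p of 0.0107. Chac1, on 3 to 11 UMIs per replicate, overlapped between all groups, with standard errors of 0.57 to 0.65 on its log2 differences.

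Of the 4 members tested in neutrophil-like cells, Atf4, Ddit3, Chac1 and Sesn2, edgeR called 0 for tumor in LAIR1KO, where 0.0548% of 3649 genes were called, 0 for tumor in WT (0.767%), 0 for genotype in tumor-bearing lung (0.137%) and 0 for genotype in normal lung (0.356%). An unadjusted p under 0.05 was found for 1 member in tumor in WT, Ddit3, beside 11.5% of all genes, and for 0 in the other 3 comparisons, beside 7.48 to 10.6%. DESeq2 called 0 in all 4 and gave no adjusted p for 1 of the 16 tests. The 95% intervals for Sesn2 ran from -0.27 to 0.52 in log2 for tumor in LAIR1KO and from -0.41 to 0.39 for tumor in WT. Genes induced by dissociation were at 143 per 10000 UMIs in LAIR1KO tumor-bearing neutrophil-like cells, 178 in LAIR1KO normal, 193 in WT tumor-bearing and 177 in WT normal ones.

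Atf5 was highest in fibroblast-like cells, at 219.6 ± 28.1 CPM (SD, n = 12). They were 14.9% of the cells and held 57.1% of its UMIs, and their lowest replicate, 171 CPM, lay above the highest of the next class, pericyte and smooth muscle cell-like cells, at 141 CPM. Thinned to 2000 UMIs, 31.5%, 32.5%, 34.0% and 37.5% of fibroblast-like cells in LAIR1KO tumor-bearing, LAIR1KO normal, WT tumor-bearing and WT normal lung held an Atf5 UMI, against 1.11%, 1.34%, 4.35% and 1.19% of neutrophil-like cells. In fibroblast-like cells Atf5 did not pass the test in any contrast, with a log2 difference of 0.03 ± 0.15 for tumor in LAIR1KO and -0.27 ± 0.13 for tumor in WT (SE).

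The one called difference among the members was Atf5 in endothelial cell-like cells with tumor in LAIR1KO. Its level was 12.3, 32.9 and 42.7 CPM in LAIR1KO tumor-bearing replicates, against 64.2, 81.3 and 102 CPM in LAIR1KO normal ones. WT tumor-bearing replicates had 39.1, 30.6 and 55.9 CPM and WT normal ones 52.6, 57.7 and 32.7 CPM. The LAIR1KO groups did not overlap, the WT groups did, and the LAIR1KO normal replicates stood above all 9 others. Atf5 fell by 1.27 ± 0.31 in log2 (SE), with an adjusted p of 0.0343 (edgeR), among 5 members tested and a background of 1.59% of 6869 genes called.

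The call was lost in 9 of 22 alternative settings, among them DESeq2 (adjusted p = 0.0585) and the removal of LAIR1KO tumor-bearing replicate 1 or 2 (0.125 and 0.192) or of LAIR1KO normal replicate 2 or 3 (0.133 and 0.0899). With coarser clusters the log2 difference was -0.81. The difference between this and the WT change, the interaction, was -0.94 ± 0.48 in log2 (SE), with an adjusted p of 0.766 (edgeR). Fibroblast markers summed to 6.94 per 10000 UMIs in LAIR1KO tumor-bearing endothelial cell-like cells (replicates 3.74 to 9.03) and 24.9 in LAIR1KO normal ones (19.6 to 40.7), against 5.61 in WT tumor-bearing and 10.5 in WT normal ones, with 0 of the 9 markers at 0. Median depth was 3254, 6679, 3423 and 5421 UMIs per cell in these groups. Among cells thinned to 2000 UMIs, 7.61%, 10.7%, 8.85% and 9.2% held an Atf5 UMI. The part of fibroblast transcripts and of depth in the Atf5 difference was not tested.

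Atf4 was highest in endothelial cell-like cells, at 639 ± 99.7 CPM, and in pericyte and smooth muscle cell-like cells, at 584 ± 114 CPM. The next class, epithelial cell-like cells at 413 ± 31.6 CPM (SD), lay below both by more than the SDs, and its highest replicate was under the lowest of the pericyte and smooth muscle cell-like ones. Asns, the asparagine-making enzyme, also had its highest means in those vascular classes, at 21.2 ± 12.9 CPM in pericyte and smooth muscle cell-like cells (n = 3) and 19.8 ± 11.3 CPM in endothelial cell-like cells (SD, n = 12). The 3 pericyte and smooth muscle cell-like values rest on 2, 5 and 1 Asns UMIs. Endothelial cell-like replicates, at 7.83 to 46.1 CPM, overlapped epithelial cell-like ones, at 4.60 to 17.3 CPM. For genotype in normal lung, 4 of the 5 members tested in endothelial cell-like cells had an unadjusted p under 0.05, as 8.75% of all genes did, but edgeR called 0 and DESeq2 0, beside 0.655% of all genes. Their log2 values were 0.74 for Atf5, -0.96 for Gdf15, -0.69 for Ddit4 and -0.33 for Atf4, with adjusted p of 0.359 to 0.569. For tumor in WT and for genotype in tumor-bearing lung edgeR called 0 of the 5 members, with none at an unadjusted p under 0.05, beside 0.0873% and 0% of all genes.

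Ddit4, which is induced by hypoxia and glucocorticoids as well as by stress, had 38 ± 11.7 CPM in endothelial cell-like and 36.3 ± 7.85 CPM in epithelial cell-like cells (SD, n = 12 each). Its monocyte-like level of 43.7 ± 87.3 CPM was higher in the mean but spread from 0 to 286 CPM. In both macrophage classes it was almost absent, at 1.19 ± 1.06 CPM in interstitial and 1.15 ± 2.83 CPM in alveolar macrophage-like cells. Trib3 was highest in epithelial cell-like cells, at 6.23 ± 3.00 CPM (SD, n = 12), which held 43.3% of its 127 UMIs.

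In epithelial cell-like cells, where 7 members were tested, genotype in normal lung had by far the largest background, with 15.6% of 9160 genes called. None of the 7 members was called with edgeR or DESeq2, and 3 had an unadjusted p under 0.05, as 28.1% of all genes did. Atf5 was at 52.0, 57.2 and 61.5 CPM in LAIR1KO normal replicates, against 30.8, 37.2 and 29.2 CPM in WT normal ones, without overlap, and the log2 difference was 0.68 ± 0.23 (SE, adjusted p = 0.0605, edgeR). Ddit4 was at 27.9 ± 3.68 CPM in LAIR1KO normal and 39.6 ± 4.1 CPM in WT normal lung (SD, n = 3 each), a log2 difference of -0.62 ± 0.22 (SE, adjusted p = 0.0688, edgeR), and Atf4 differed by -0.29 ± 0.12 (SE, adjusted p = 0.146, edgeR). Fibroblast markers were at 33.6 per 10000 UMIs in LAIR1KO normal and 5.7 in WT normal epithelial cell-like cells, and endothelial markers at 22.0 and 7.46, with none of either list at 0. Their part in these values was not tested.

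No epithelial member passed the test with tumor or for genotype in tumor-bearing lung. For tumor in LAIR1KO edgeR called 0 of 7 members beside 7.43% of all genes, with none at an unadjusted p under 0.05. For tumor in WT it called 0 beside 0.0546%, also with none at an unadjusted p under 0.05. For genotype in tumor-bearing lung it called 0 beside 0%, with 1 member, Atf5, at an unadjusted p under 0.05, as were 5.35% of all genes. Atf5 was at 81.1, 49.3 and 42.2 CPM in LAIR1KO tumor-bearing replicates, against 23.7, 39.0 and 38.0 CPM in WT tumor-bearing ones, a log2 difference of 0.64 ± 0.27 (SE) with an adjusted p of 0.871 (edgeR). DESeq2 called 0 members in all 3 comparisons.

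Fibroblast-like cells gave 4 tested members, of which edgeR called 0 in all 4 contrasts, beside 0.111%, 0.234%, 0% and 0.246% of all genes for tumor in LAIR1KO, tumor in WT, genotype in tumor-bearing lung and genotype in normal lung. Ddit3 averaged 89.8 ± 12.7 CPM in LAIR1KO tumor-bearing and 66.6 ± 9.47 CPM in WT tumor-bearing fibroblast-like cells (SD, n = 3 each), without overlap, at a log2 difference of 0.43 ± 0.18 (SE) and an adjusted p of 0.973 (edgeR). An unadjusted p under 0.05 was found for 1, 1, 2 and 0 members in the same 4 contrasts, and for 6.48%, 6.75%, 4.53% and 7.55% of all genes, and DESeq2 called 0.

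The smaller classes gave 1 or 2 tested members each, Atf4 and, in monocyte-like cells, also Ddit3, and edgeR and DESeq2 called 0. The backgrounds were 0.0929% in both B cell-like comparisons (tumor in WT and genotype in tumor-bearing lung) and, for genotype in tumor-bearing lung, 0% in T cell-like and natural killer cell-like and 0.0424% in dendritic cell-like cells. In monocyte-like cells they were 0% for tumor in LAIR1KO and for genotype in tumor-bearing lung, 0.054% for tumor in WT and 0.108% for genotype in normal lung. In T cell-like cells Atf4 was the 1 member at an unadjusted p under 0.05, as were 7.4% of all genes, with 156 ± 16.2 CPM in LAIR1KO tumor-bearing lung (n = 2) and 384 ± 211 CPM in WT tumor-bearing lung (n = 3), a log2 difference of -1.30 ± 0.49 (SE, adjusted p = 0.529, edgeR). The other smaller-class comparisons had none.

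The difference between the tumor effects of the 2 genotypes was also fitted. Leaving aside interstitial macrophage-like cells, edgeR called 0 members in endothelial cell-like (background 0.0291%), epithelial cell-like (0.426%), fibroblast-like (0.037%), monocyte-like (0.054%) and neutrophil-like cells (0.0548%). Atf4 was the 1 member at an unadjusted p under 0.05 in endothelial cell-like cells, at 0.51 ± 0.23, and in fibroblast-like cells, at 0.44 ± 0.20 in log2 (SE), with adjusted p of 0.691 and 0.705 (edgeR), and 6.74% and 6.91% of all genes passed the same unadjusted threshold. DESeq2 called 0 of these 22 member tests, 6 of which received no adjusted p from it. Over the 9 classes other than interstitial macrophage-like and neutrophil-like cells, 79 tests of members in 22 comparisons gave 1 call with edgeR and 0 with DESeq2, where edgeR called 2.03% of 114651 tests of all genes. An unadjusted p under 0.05 came from 14 of the 79, or 17.7%, against 9.47% over all genes. These tests share replicates and libraries, so the shares are given as a description.

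**Figure D5:**
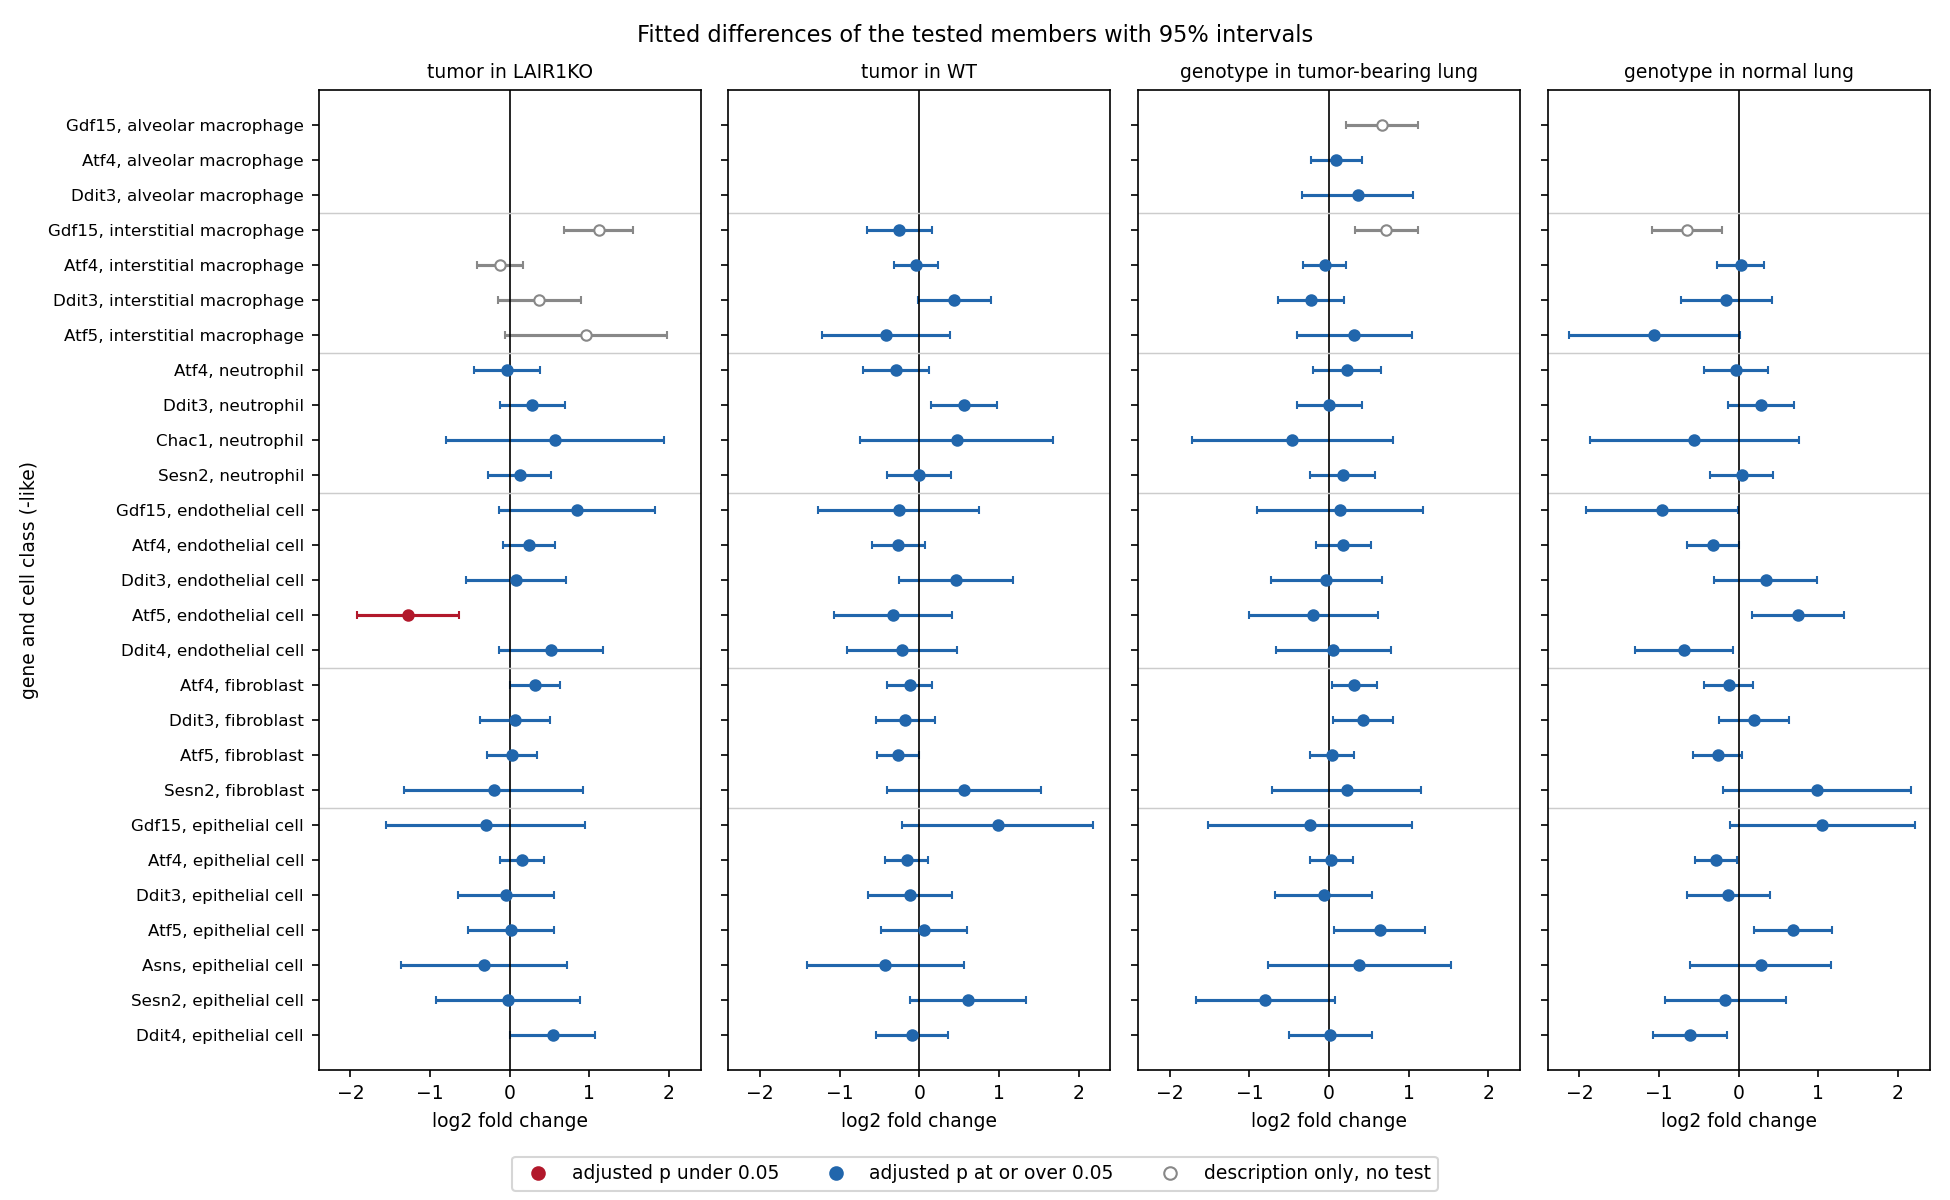
Fitted log2 fold changes (x axes) with 95% intervals for each tested member and class (rows) in 4 contrasts (panels), LAIR1KO over WT or tumor-bearing over normal. Atf5 in endothelial cell-like cells with tumor in LAIR1KO, at -1.27, is the 1 called value (red), blue values were not called, and open gray values are from the contrasts that chose the gene or share its libraries.

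Across 39 profiles, each a cell class in a group with at least 20 cells, the members did not follow Gdf15 as a set. The correlation with Gdf15 was 0.35 for Asns, 0.23 for Atf4, 0.14 for Atf5, 0.03 for Trib3 and -0.01 for Ddit3. It was -0.21 for Chac1, -0.26 for Sesn2 and -0.44 for Ddit4 (Pearson's r of log-scaled levels). Profiles of 1 library share its depth and preparation, so these values describe the profiles only. Trib3, Chac1 and Asns reached 50 CPM in no profile, so all correlations with them rest on few UMIs. Among the other pairs, Chac1 and Sesn2 were closest at 0.78, followed by Atf4 and Asns at 0.57 and Ddit3 and Sesn2 at 0.48. The genes most like Gdf15 among 7961 candidates were Dpp7 at 0.87, Myo7a at 0.86, Rragc and Camk1 at 0.85 and Tfec at 0.84. Against these, Atf4 ranked 2047 and Sesn2 7273.

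The wider pathway was read from 8 lists. These, like the members, were chosen with earlier results of these data known, so their called shares are given as a description. In interstitial macrophage-like cells 11 of 12 eIF2alpha kinase and phosphatase genes, 18 of 27 amino acid and tRNA-charging targets of ATF4, 17 of 17 endoplasmic reticulum chaperone and unfolded protein response genes, 8 of 12 p53 targets, 9 of 11 mTORC1 regulators, 4 of 5 mitochondrial stress genes and 10 of 10 dissociation genes were tested. In these lists edgeR called 0 genes in all 4 contrasts. Of all genes tested it called 0% for tumor in LAIR1KO and 0.874% for tumor in WT. For genotype it called 0.0941% in tumor-bearing and 1.24% in normal lung. For tumor in LAIR1KO, the contrast in which Gdf15 was chosen, their median log2 differences were -0.10 for the kinase and phosphatase genes, -0.10 for the amino acid targets and 0.12 for the endoplasmic reticulum genes, with -0.01 over all genes tested. They were -0.03 for the p53 targets, -0.02 for the mTORC1 regulators, 0.11 for the mitochondrial genes, -0.13 for the dissociation genes and -0.04 for the ATF4 partners and other stress factors. Among 12 of 17 tested ATF4 partners and other stress factors, 1 gene rose in each of 2 contrasts. Over all lists that was 1 of 86 genes tested, 1.16%, in each, beside 0.0941% and 0.874% of all genes.

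Jdp2, which encodes a basic leucine zipper repressor, averaged 292 ± 47.5 CPM in LAIR1KO tumor-bearing and 161 ± 24.1 CPM in WT tumor-bearing interstitial macrophage-like cells (SD, n = 3 each). Its lowest LAIR1KO value, 249 CPM, lay above its highest WT one, 187 CPM. It rose by 0.84 ± 0.15 in log2 (SE, adjusted p = 0.0347, edgeR), a call lost in 9 of 21 alternatives, among them the removal of either LAIR1KO tumor-bearing replicate 2 or 3 (adjusted p = 0.213 and 0.182) or WT tumor-bearing replicate 1 or 2 (0.248 and 0.101). Bcl2l11, which encodes the pro-apoptotic protein BIM, averaged 152 ± 32.6 CPM in WT tumor-bearing and 79.97 ± 13.7 CPM in WT normal cells (SD, n = 3 each). It rose by 0.90 ± 0.19 in log2 (SE, adjusted p = 0.0284, edgeR), a call lost in 6 of 21 alternatives, including without each WT normal replicate (adjusted p = 0.0602 to 0.118).

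In neutrophil-like cells edgeR called 0 genes of the 8 lists in every contrast. In epithelial cell-like cells several list genes were called in 2 contrasts that share the LAIR1KO normal library. With tumor in LAIR1KO, Bcl2l11 rose to 114 ± 15.2 CPM in tumor-bearing lung, against 54.6 ± 7.76 CPM in normal lung, and Herpud1, an endoplasmic reticulum degradation factor, to 330 ± 49.3 CPM against 178 ± 13.1 CPM (SD, n = 3 each). Dnajb9, a chaperone of the endoplasmic reticulum, was at 305 ± 50.3 CPM against 174 ± 6.69 CPM, and Cth, an enzyme of cysteine synthesis, at 55.8 ± 23.4 CPM against 24.2 ± 5.78 CPM (SD, n = 3 each). These changes were called, with log2 values of 1.12, 0.93, 0.86 and 1.31, in a comparison where 7.43% of genes were. Sesn3, a relative of Sesn2, rose by 0.81 in the same comparison, so 5 of 93 list genes tested, 5.38%, were called.

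For genotype in normal lung, 14 of the 93 list genes tested were called in epithelial cell-like cells, a share of 15.1%, close to the 15.6% of all genes. Of these, 8 fell and 6 rose. Bcl2l11 fell by 1.01, Nfe2l2, which encodes the antioxidant regulator NRF2, by 0.62, Dnajb9 by 0.82, Pdia6, a disulfide isomerase, by 0.64 and Cth by 1.11 in log2. Sesn3 fell by 1.01, Deptor, an mTOR inhibitor, by 0.87 and Eif2ak4, which encodes the eIF2alpha kinase GCN2, by 0.87. Among those that rose, Cebpb, a dimer partner of ATF4 and CHOP, was higher by 1.24, Eif4ebp1, a translation repressor, by 1.33 and Phlda3, a p53 target, by 1.47 in log2. Impact, an inhibitor of GCN2, was higher by 1.02, and Ppp1r15a, the stress-induced eIF2alpha phosphatase subunit, by 0.49. The 2 contrasts share the LAIR1KO normal replicates, in which fibroblast and endothelial markers were also highest. The part of these markers in the values was not tested.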

How the data were processed

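Single lung cells were profiled with the 10x Genomics 3' kit. Per the submitters' processing notes, the reads were processed with Cell Ranger 4.0.0 and STAR against mm10, and R 4.0.0 and Seurat 3.2.0 were also used. The deposited files hold the authors' UMI counts per gene and per hashtag antibody, not normalized.

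Of 16350 barcodes, 15793 had at least 300 genes and at most 10% mitochondrial UMIs. HTODemux (Seurat 5.3.0, quantile 0.99) assigned 8468 of these to 1 of 3 hashtag replicates per group, leaving out 14.7 to 24.3% as hashtag doublets and 23.0 to 33.0% as unmarked. The hashtags are named Mouse 1 to Mouse 3 in the deposited counts. The labels say no more of what the replicates are, so p-values measure the spread between hashtagged samples. Scrublet marked 1.34% of cells as doublets, and these were kept in the main analysis. Clustering used scanpy 1.11.5 with leidenalg 0.10.2, on cells scaled to 10000 UMIs (2000 variable genes, 30 components, 15 neighbours, resolution 1). Gdf15, Chac1 and Sesn2 were among the variable genes. Clusters were named from marker lists, and 7.32% of the kept cells stayed unnamed.

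For each class, the counts of every hashtag replicate holding 10 or more of its cells were summed and fitted with edgeR 4.0.16 (quasi-likelihood test, TMM, filterByExpr, the 4 groups sharing 1 dispersion estimate) in R 4.3.3. P-values were Benjamini-Hochberg adjusted over all genes tested in a class, and 0.05 was the threshold. SEs were derived from the fold change and its F statistic. The 95% intervals used the SEs and the t distribution with the total degrees of freedom of the fit, prior plus residual. In 1 member test, Ddit4 with tumor in LAIR1KO in epithelial cell-like cells, the interval leaves out 0 while the p is 0.0539. SEs derived from the p instead, computed after seeing the data, differed by over 1% for 8 of 138 member values, all of Ddit4, Asns or Atf4. Intervals from those SEs match their p by construction, so they are no check. The F-based form was kept. Shares carry exact binomial intervals, which like all counting intervals cover counting error only. On simulated counts for tumor in WT, 67.7% of 2-fold and 95.9% of 4-fold changes were recovered among 7440 genes in interstitial macrophage-like cells, and 61.9% and 92.6% among 3649 genes in neutrophil-like cells. Alternatives were DESeq2 1.42.0, no TMM, no filter, 2 groups per fit, each replicate left out, another hashtag rule (top hashtag at least 80% of at least 20 hashtag UMIs), Scrublet doublets removed, clustering without the members and lists, resolution 0.5, at most 5% mitochondrial UMIs, the top cell of a member left out, levels as a mean over cells, and unthinned shares. DESeq2 gave no adjusted p for 4 of 79 member tests outside interstitial macrophage-like and neutrophil-like cells. The same held for 4 of 16 in interstitial macrophage-like and 1 of 16 in neutrophil-like cells. None of these were counted as calls.

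All 9 members were described. From each pathway list and contrast, up to 4 genes past the threshold with the smallest p were named, and the 5 genes most like Gdf15 by Pearson's r of log2(CPM + 10) among genes reaching 50 CPM. The members and lists were chosen with earlier results of these data known.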

Additional observations from a re-analysis of the deposited data

Results flagged for a closer look

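Gdf15 in interstitial macrophage-like cells was noted because its tumor difference in LAIR1KO lung exceeded that in WT lung by 1.37 ± 0.28 in log2 (SE). The LAIR1KO side of this contrast chose the gene, so the value is a description and no test supports it.

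Dnajb9, which encodes a chaperone of the endoplasmic reticulum, was noted because its tumor difference in epithelial cell-like cells was larger in LAIR1KO than in WT lung by 1.05 ± 0.19 in log2 (SE, adjusted p = 0.0313, edgeR's quasi-likelihood test). Its level was 305 ± 50.3 CPM in LAIR1KO tumor-bearing and 174 ± 6.69 CPM in LAIR1KO normal lung (SD, n = 3 each), and WT normal lung had 279.7 ± 37.0 CPM. For genotype in normal lung, Dnajb9 differed by -0.82 ± 0.13 in log2 (SE). WT normal lung was the only male group, and fibroblast markers were higher in LAIR1KO normal than in WT normal epithelial cell-like cells. The part of either in the Dnajb9 values was not tested. For this difference between tumor effects, 1 of the 93 list genes tested was called, 1.08%, beside 0.426% of all genes. The call was lost in 14 of 20 alternatives. Over all 20 the difference ranged from 0.80 to 1.15 and the adjusted p from 0.0019 to 0.48. The 14 include the removal of any one of the 3 WT normal replicates (adjusted p of 0.0549, 0.0622 and 0.0692) and of any one of the 3 WT tumor-bearing ones (0.104, 0.0989 and 0.062).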

How the results depend on the processing

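Of 430 values recomputed under alternatives for 24 results, 366 were counted as the same and none reversed. For tested differences, the same meant the same direction and side of the threshold. Described values, counts and shares have no such threshold, and some were counted as moved although their direction held. In all, 12 results were counted as the same under every alternative run. These include the counts of 0 called members in interstitial macrophage-like and neutrophil-like cells under 22 alternatives each. The 1 member called in the other classes became 0 with DESeq2, resolution 0.5, at most 5% mitochondrial UMIs and the other hashtag rule. It became 2 with Scrublet doublets removed, clustering without the members and lists, no TMM or the top cell left out, and 3 without the filter on low counts. Leaving out single replicates gave 0 to 2. The 21 called list genes over all classes and 4 contrasts became 11 at resolution 0.5, 4 at 5% mitochondrial UMIs, 61 without the filter and 5 with the other hashtag rule, and 14 to 24 with single replicates left out. The described Gdf15 difference of 1.12 in LAIR1KO interstitial macrophage-like cells ranged from 0.90, with LAIR1KO normal replicate 1 left out, to 1.37, with replicate 3 of that group left out. The genotype value in normal lung, -0.65, was -0.43 under the other hashtag rule and -0.90 to -0.44 with single replicates left out. Without thinning, the share of LAIR1KO tumor-bearing interstitial macrophage-like cells with a Gdf15 UMI was 36.8% in place of 27.7%. Between 6 and 9 of the 9 members kept their highest class, which was counted as the same in all 19 alternatives. Asns and Ddit4 (each in several alternatives) and Ddit3 and Trib3 did not always, and the classes that replaced theirs were endothelial cell-like, T cell-like, natural killer cell-like and pericyte and smooth muscle cell-like. The cause of these shifts was not tested. No paired analysis was possible because the hashtag numbers tie no animals across groups.

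Depth limits Trib3, Chac1, Asns and Ddit4, which had 127 to 876 UMIs in all kept cells, so that differences in them were mostly not detectable. Each group was 1 library, so the preparation of a library cannot be told apart from its group.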
